A study of Mus musculus with 3 samples.

Results

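Phototransduction is the set of reactions by which rods and cones turn absorbed light into an electrical signal, and 32 of its genes are followed here among the 24071 genes measured in single cells of mouse retina. They were chosen by name: transducin subunits, cone opsins, phosphodiesterase and channel subunits, guanylate cyclases and their activators, arrestins and other shut-off proteins, and the photoreceptor transcription factors. For the counts below, 11 are treated as rod genes, 10 as cone genes and 11 as genes of both cell types. All 32 had reads in cells named rod and in cells named cone, in each of the 3 libraries.

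In background, an activated opsin switches on transducin, transducin lifts the brake on a phosphodiesterase, and the resulting fall in cyclic GMP closes cation channels in the outer segment. Rods and cones run the same scheme with mostly separate gene copies. A kinase, an arrestin and a GTPase-activating complex end the response, and calcium-sensing activators drive guanylate cyclase to restore cyclic GMP. Crx switches on photoreceptor genes in both cell types, while Nrl and Nr2e3 direct a cell to the rod fate.

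Retinas were taken at P26 from 3 groups, with 1 library each: WT mice, Tspan12 KO mice, and Tspan12 KO mice that received F4L5.13 intraperitoneally (10 mg/kg at P6, P9 and P12, then 4 mg/kg every 3 days). The strain field reads Tspan12tm1.2Hjug for all 3 groups, WT included, and the labels used here do not state how many mice were pooled. Tspan12 encodes a co-receptor of Norrin signalling through Fzd4 in retinal vessels, and F4L5.13 is an antibody that activates that receptor complex. Cells were freed with papain and collagenase, and beads coated with anti-CD73 and Annexin V then removed photoreceptors and dying cells before 10x Chromium 3′ v3 libraries were made, so the rods and cones measured here are those that escaped removal. Since each group is a single library, no comparison between groups carries a test, and every interval below covers counting error only. Tspan12 itself gave 51.5, 36.5 and 32.1 CPM (reads of the gene per 1000000 reads of the class) in Müller glia of the WT, KO and treated libraries, and because the sources used here do not give which exons the allele lacks, its 3′ reads do not check the labels.

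The libraries held 6092, 10769 and 9835 barcodes in the order WT, KO, treated, with medians of 14797, 7351 and 6588 reads. Rods were 3.63, 32.9 and 28.0% of the kept cells (210, 3091 and 2321 cells), and cones were 12.6, 5.12 and 6.53% (731, 481 and 541 cells). WT rods were much deeper, with a median of 14654 reads against 3768 in KO and 3906 in treated rods, while cones had medians of 12219, 11166 and 13254. The rods also sat in different clusters: clusters 14.0 and 14.2 held 110 and 50 of the 210 WT rods, whereas clusters 0.1 and 0.2 held 1303 and 890 of the 3091 KO rods and 1198 and 300 of the 2321 treated rods. Every rod comparison with WT therefore sets mostly different clusters and depths against each other. Clusters were built without the 32 genes and named from other markers. Cells that carried rod markers together with Müller or cone markers, and a shallow rod-like cluster of 9, 1161 and 1426 cells, were left unnamed. Nt5e, the gene of CD73, was at 132, 112 and 148 CPM in the remaining rods. Between pairs of libraries, 63 barcode sequences were shared.

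Part of the module shares a sequence feature near the transcription start. The letters TAATCC, the core that Crx and its relative Otx2 are known to bind, were searched on both strands of RefSeq promoters on GRCm38.p6, from 250 bases before to 50 bases after the start. Promoters were found for 24 of the 32 genes, and 10 of their 26 promoters (38.5%) held the letters, against 7.06% of 32851 promoters of the same length. By role, 4 of 8 promoters of rod genes held them, 5 of 9 of the genes of both cell types, and 1 of 9 of cone genes. The letters TGCTGA, one arm of the motif that Maf-family factors such as Nrl bind, were in 6 of the 26 (23.1%) against 19.5% of all promoters. A match is a description of letters and not a measured binding site. The promoters below belong to genes that the results turn on: Gngt1, which differed most between KO and WT rods among the 22 rod and shared genes, Sag, the rod arrestin gene also read in cones, Gnat2, the single cone gene with a match, and Crx and Gucy2e, which were also read in bipolar cells. Each is written 5′ to 3′ on the gene's strand, and capitals mark TAATCC or its reverse complement GGATTA.
Gngt1 (chr6:3993758-3994057, plus strand): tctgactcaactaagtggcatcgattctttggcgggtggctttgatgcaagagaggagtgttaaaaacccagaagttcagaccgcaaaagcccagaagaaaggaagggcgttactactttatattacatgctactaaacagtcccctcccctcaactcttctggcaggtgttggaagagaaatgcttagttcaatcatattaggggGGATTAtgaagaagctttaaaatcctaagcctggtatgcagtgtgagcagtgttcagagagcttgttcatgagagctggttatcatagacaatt
Sag (chr1:87803430-87803729, plus strand): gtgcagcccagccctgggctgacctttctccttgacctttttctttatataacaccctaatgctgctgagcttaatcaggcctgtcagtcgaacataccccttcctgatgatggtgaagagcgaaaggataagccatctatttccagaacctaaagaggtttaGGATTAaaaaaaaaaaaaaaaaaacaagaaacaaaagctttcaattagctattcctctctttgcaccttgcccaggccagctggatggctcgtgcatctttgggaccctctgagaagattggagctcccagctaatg
Gnat2 (chr3:108092816-108093115, plus strand): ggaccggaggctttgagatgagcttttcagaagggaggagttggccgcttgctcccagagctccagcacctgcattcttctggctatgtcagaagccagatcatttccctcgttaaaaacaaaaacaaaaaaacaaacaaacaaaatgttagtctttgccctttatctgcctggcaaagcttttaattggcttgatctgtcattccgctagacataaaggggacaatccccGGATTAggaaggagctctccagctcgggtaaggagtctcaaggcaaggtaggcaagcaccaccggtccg
Crx (chr7:15879906-15880205, minus strand): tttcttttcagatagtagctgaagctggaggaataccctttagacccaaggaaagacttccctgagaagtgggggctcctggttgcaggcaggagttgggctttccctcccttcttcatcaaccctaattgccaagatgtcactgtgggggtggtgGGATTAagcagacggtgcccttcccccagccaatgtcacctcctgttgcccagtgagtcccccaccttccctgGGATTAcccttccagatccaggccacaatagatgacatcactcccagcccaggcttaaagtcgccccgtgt
Gucy2e (chr11:69236973-69237272, minus strand): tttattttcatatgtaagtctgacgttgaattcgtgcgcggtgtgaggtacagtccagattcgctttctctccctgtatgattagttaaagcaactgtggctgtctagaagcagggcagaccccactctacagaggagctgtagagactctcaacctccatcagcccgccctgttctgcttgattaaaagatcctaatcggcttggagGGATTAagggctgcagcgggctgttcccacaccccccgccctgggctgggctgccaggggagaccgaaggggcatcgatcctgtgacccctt
Crx thus held 2 matches in its own promoter and the others shown 1 each. The promoters of both cone opsin genes, Opn1sw and Opn1mw, held none in this window.

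**Figure D1:**
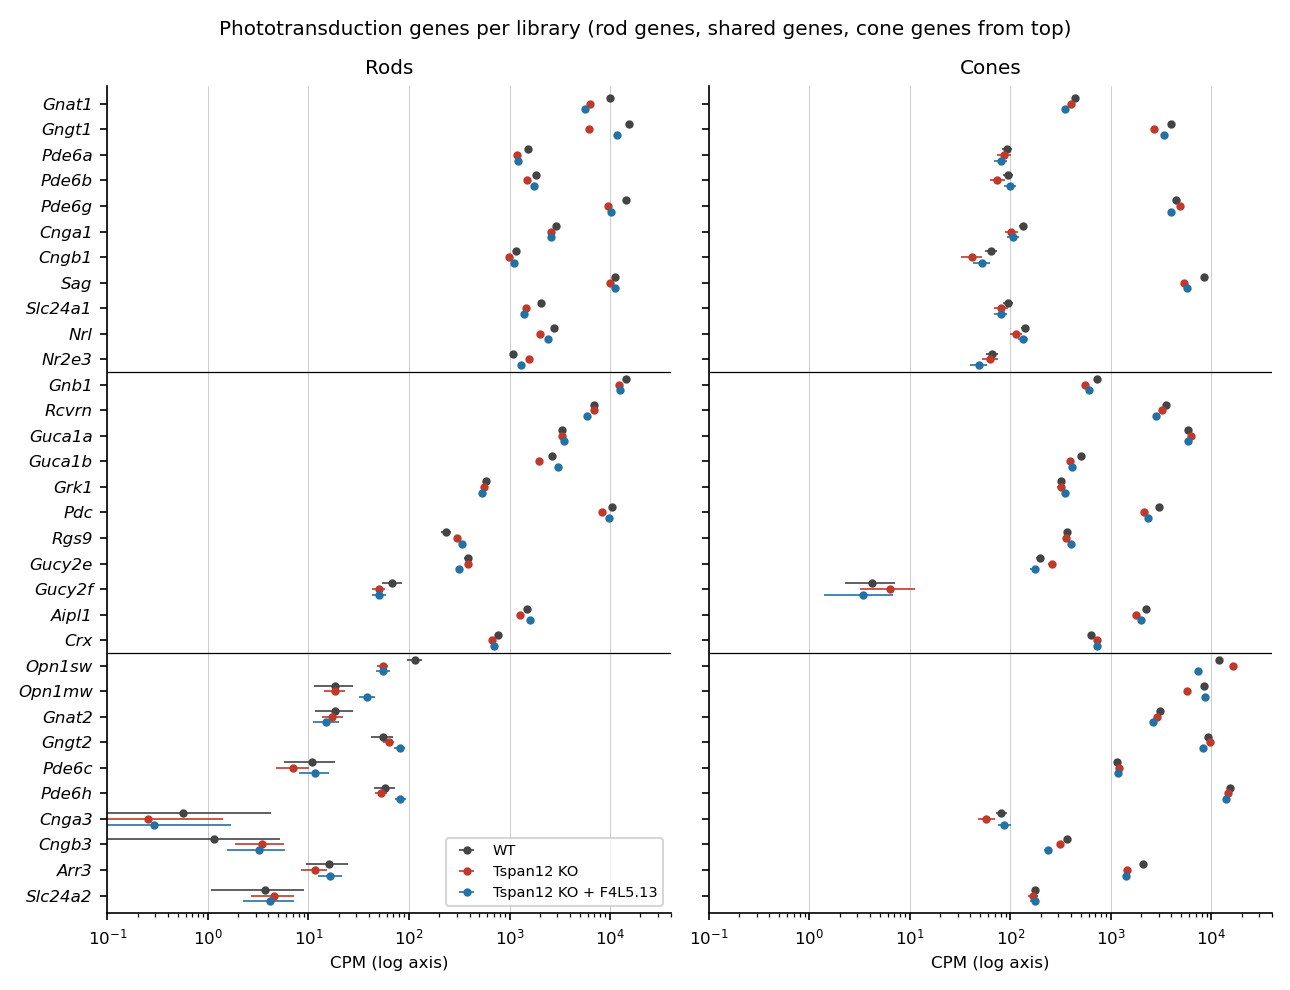
Level of each gene in rods (left) and cones (right), in CPM on a log axis, 1 point per library with its 95% counting interval; rod genes are at the top, genes of both cell types in the middle and cone genes at the bottom. Cone genes lie far lower in rods than in cones, whereas Gngt1, Pde6g and Sag in the top block lie much nearer to their rod level in cones than the other rod genes.

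The separation of rods from cones was examined first, because the classes had been named without these genes. Of the 11 rod genes, 8 were at 3.75 to 7.16% of their rod level in cones in every library. Gnat1, the rod transducin alpha subunit, was at 9899, 6253 and 5587 CPM in WT, KO and treated rods and at 437, 404 and 349 CPM in cones. Cnga1 and Cngb1, the rod channel subunits, Pde6a and Pde6b, the catalytic phosphodiesterase subunits, the exchanger Slc24a1, Nrl and Nr2e3 were 14.0- to 26.7-fold higher in rods. Gnb1, the beta subunit that rod transducin uses, was 19.6-, 22.3- and 20.9-fold higher in rods. Müller glia, which do not run the cascade, held the same 8 genes at 1.90 to 7.35% of the rod level.

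Sag, Gngt1 and Pde6g, which encode rod arrestin, the rod transducin gamma subunit and the inhibitory gamma subunit of rod phosphodiesterase, did not separate in this way. Sag was at 11286, 10098 and 11232 CPM in rods and at 8468, 5288 and 5710 CPM in cones, or 75, 52.4 and 50.8% of the rod level. Gngt1 in cones was at 25.8, 43.4 and 28.7% of its rod level. Pde6g in cones was at 31.3, 50.5 and 39.4% of its rod level, from 4465, 4808 and 3984 CPM. All 3 genes stood above the level that the other rod genes gave in cones in each library.

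Cone genes were nearly absent from rods. Of the 10, 9 were 73.7- to 464-fold higher in cones in every library, and the exchanger Slc24a2 was 47.9-, 37.1- and 41.7-fold higher. Gnat2, the cone transducin alpha subunit, was at 3048, 2899 and 2646 CPM in cones and at 18.5, 17.3 and 15.1 CPM in rods. Pde6h and Pde6c, the cone phosphodiesterase subunits, were at 13863 to 15374 CPM and 1137 to 1204 CPM in cones. The cone channel subunit Cnga3 gave under 1 CPM in rods of each library, too few reads for any comparison there.

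Genes of both cell types split by class. The cyclase activator Guca1b was 5.25-, 5.08- and 7.28-fold higher in rods, and its neighbour in function Guca1a was 1.76-, 1.88- and 1.69-fold higher in cones. Pdc, which encodes the transducin-binding protein phosducin, was 3.46-, 3.94- and 4.11-fold higher in rods, and Rcvrn, which encodes the kinase inhibitor recoverin, 1.99-, 2.11- and 2.10-fold. Aipl1, the chaperone of phosphodiesterase, was 1.5-, 1.39- and 1.24-fold higher in cones, and Rgs9, the GTPase activator that shuts transducin off, 1.57-, 1.2- and 1.19-fold. The opsin kinase gene Grk1 was 1.82-, 1.73- and 1.53-fold higher in rods. Gucy2e, the main cyclase gene, was 2.0-, 1.5- and 1.78-fold higher in rods, and the second cyclase gene Gucy2f, at 49.9 to 68.5 CPM in rods, was 7.96- to 16.2-fold higher there.

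Of the transcription factor genes, Nrl and Nr2e3 separated rods from cones and Crx did not. Crx was at 766, 672 and 695 CPM in WT, KO and treated rods and at 635, 722 and 722 CPM in cones, so rods and cones lay within 1.21-fold of each other. Nrl was at 2759, 2015 and 2387 CPM in rods and at 140, 114 and 133 CPM in cones. Nr2e3 was at 1095, 1547 and 1293 CPM in rods and at 66.1, 63.2 and 48.4 CPM in cones. After thinning each cell to 2000 reads, a read of Nrl was found in 96.7, 89.5 and 92.0% of rods and in 14.2, 16.2 and 13.4% of cones (100, 91.6 and 94.0% of rods and 33.7, 38.5 and 33.5% of cones before thinning). Müller glia, with median depths of 18913, 25060 and 22090 reads, gave 10.8, 10.0 and 14.6% for Nrl after thinning (30.1, 36.2 and 40.8% before), so the cone shares lay near those of a class that should lack the gene. For Crx, the thinned shares were 74.3, 56.8 and 56.9% of rods, 64.2, 69.7 and 65.4% of cones and 3.96, 5.50 and 5.17% of Müller glia (96.2, 67.1 and 67.6%, 96.6, 93.8 and 92.6%, and 18.0, 22.8 and 24.4% before thinning). The thinned sets left out 355 KO and 170 treated rods, 13 KO and 4 treated cones, and 19 KO and 14 treated Müller glia.

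KO rods were then compared with WT rods, to see how the cascade stood in the mutant. Of the 22 rod and shared genes, 2 were past 1.5-fold, both lower in KO, namely Gngt1 and Gnat1. Across all genes 43.0% of 9509 were past that fold, 40% higher and 3.0% lower in KO, and the median gene was 0.41 log2 units higher in KO rods. The 22 genes had a median log2 ratio of -0.24, with 20 below 0. The set over all genes took any gene with 30 molecule equivalents in either library. KO rods held more reads in total, so weakly read genes could enter through KO alone. With minimums of 10 and 1 equivalents the median gene was at 0.50 and 0.66. Among rods of 8000 to 20000 reads it was at 0.005, and the 21 measured genes of the 22 at -0.19. After scaling that sets the median gene of the first set to 0 (median of ratios), 14 of the 22 were past 1.5-fold lower and none higher. The same scaling called 2174 genes higher and 1415 lower, in place of 3806 and 285. Over clusters 14.0 and 14.2 together fewer genes were measured, and 27.2% of 4095 were past the fold, 602 higher and 512 lower. The median gene there was at 0.04 and the 22 genes at -0.14, with 1 of the 22 past the fold. When clustering used the 32 genes, the median of the 22 turned to 0.090 against 0.21 for all genes, with 2 past the fold higher and 1 lower. Depth, cluster and the markers of other cells moved with this comparison: summed Müller markers were 1194 CPM in WT rods and 717 in KO rods, summed bipolar markers 258 and 449 CPM. Their part in the result was not tested. After thinning to 2000 reads, Gngt1 was read in 100, 98.3 and 99.2% of WT, KO and treated rods and Gnat1 in 100, 99.4 and 98.8% (100, 96.7 and 98.1% and 100, 99.4 and 99.3% before thinning). In Müller cells the thinned shares were 21.3, 17.5 and 29.6% for Gngt1 and 24.5, 26.4 and 32.3% for Gnat1.

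Gngt1, whose protein anchors the transducin beta subunit to the disc membrane, differed most. Gngt1 was at 15292 CPM in WT rods, 6188 in KO rods and 11794 in treated rods. The KO value was 0.405 of WT (95% interval 0.397 to 0.413), the treated value 1.91 times KO (1.88 to 1.94) and 0.771 of WT (0.758 to 0.785). KO was the lowest library in each rod cluster that all 3 libraries filled with 20 or more cells. In cluster 14.0, which held most WT rods, Gngt1 was at 15369, 7700 and 13035 CPM (110, 26 and 67 cells), and in cluster 14.2 at 16966, 8230 and 15304 CPM (50, 26 and 41 cells). In cluster 0.1 the levels were 12675, 6974 and 11685 CPM (44, 1303 and 1198 cells). Among rods of 8000 to 20000 reads the KO to WT ratio was 0.430. The order also held outside rods: Gngt1 was at 3945, 2683 and 3389 CPM in cones and at 1288, 570 and 986 CPM in bipolar cells. Neither the ratios of Gngt1 in cones, 0.680 for KO to WT and 1.26 for treated to KO, nor the neighbouring rod subunit Pde6g, at 14248, 9528 and 10123 CPM in rods, passed the fold.

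Gnat1 was at 0.632 of the WT level in KO rods (0.618 to 0.646) and at 0.564 in treated rods (0.551 to 0.578). Within clusters the difference from WT was smaller. In cluster 14.0 Gnat1 was at 10737, 10321 and 8864 CPM, in cluster 14.2 at 8821, 8793 and 6956 CPM, and in cluster 0.1 at 6025, 6105 and 4896 CPM. Its KO to WT ratio was 0.951 over clusters 14.0 and 14.2 together (160, 52 and 108 cells) and 0.850 among rods of 8000 to 20000 reads. Unlike Gngt1, the gene thus passed the fold against WT in the sum over all rods and not within those clusters.

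**Figure D2:**
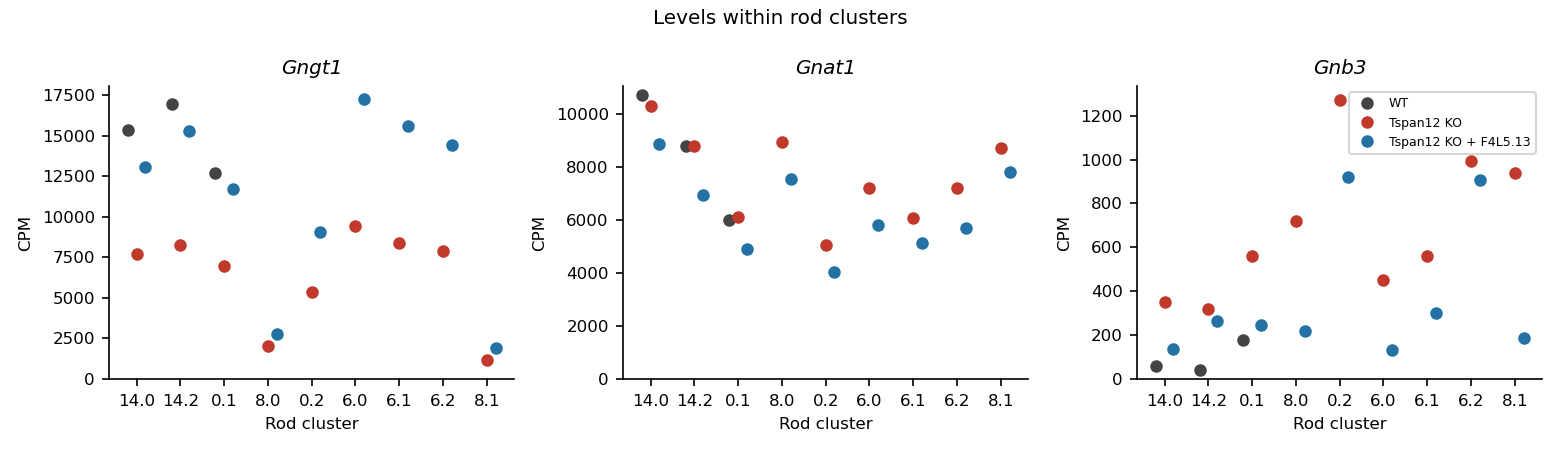
Level of Gngt1, Gnat1 and Gnb3 in CPM (linear axes from 0) within 9 rod clusters, 1 point per library where it has at least 20 cells of the cluster. Gngt1 is lower in KO than in treated rods and Gnb3 higher in KO in every cluster drawn, while the WT and KO points of Gnat1 nearly coincide in clusters 14.0, 14.2 and 0.1.

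The other rod genes lay within 1.5-fold of WT in KO, at ratios from 0.669 (Pde6g) to 0.897 (Cnga1), except Nr2e3 at 1.41 (1.33 to 1.5). Sag was at 0.895, Nrl at 0.730 and Slc24a1 at 0.706. Of the genes of both cell types, Guca1a, Rcvrn and Gucy2e were at 0.986 to 0.990, Pdc at 0.80 and Rgs9 at 1.28. Crx was at 0.877 (0.813 to 0.947). Nr2e3 was higher in KO than in WT in clusters 14.0 (1111 and 1462 CPM), 14.2 (965 and 1690 CPM) and 0.1 (1211 and 1797 CPM).

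Treated rods were compared with KO rods, a pair with nearly equal depths. Past 1.5-fold were 2 of the 22 genes, both higher in the treated library, against 14.7% of 9574 genes in either direction, 2.71% higher and 11.9% lower. These were Gngt1, given above, and Guca1b, at 1986 CPM in KO rods and 3017 in treated rods, a ratio of 1.52 (1.47 to 1.57) that was past the fold in 11 of 13 alternatives. WT rods had 2621 CPM of Guca1b. In cluster 0.1 Guca1b was at 2202, 2092 and 3118 CPM, and in cluster 14.0 at 2658, 1737 and 2979 CPM. The median log2 ratio of the 22 genes was 0.05, with 16 above 0, against -0.10 for all genes. Treated against WT, 1 of the 22 genes was past the fold (Gnat1), against 35.2% of 8413 genes (31.9% higher, 3.33% lower), with a median of -0.15 for the 22 and 0.31 for all genes. Treated rods also held more reads in total than WT rods, so weakly read genes could enter through the treated library alone. Among rods of 8000 to 20000 reads the medians were -0.16 for the 21 genes measured and 0.02 for all genes. These comparisons share libraries and are not independent of each other.

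**Figure D3:**
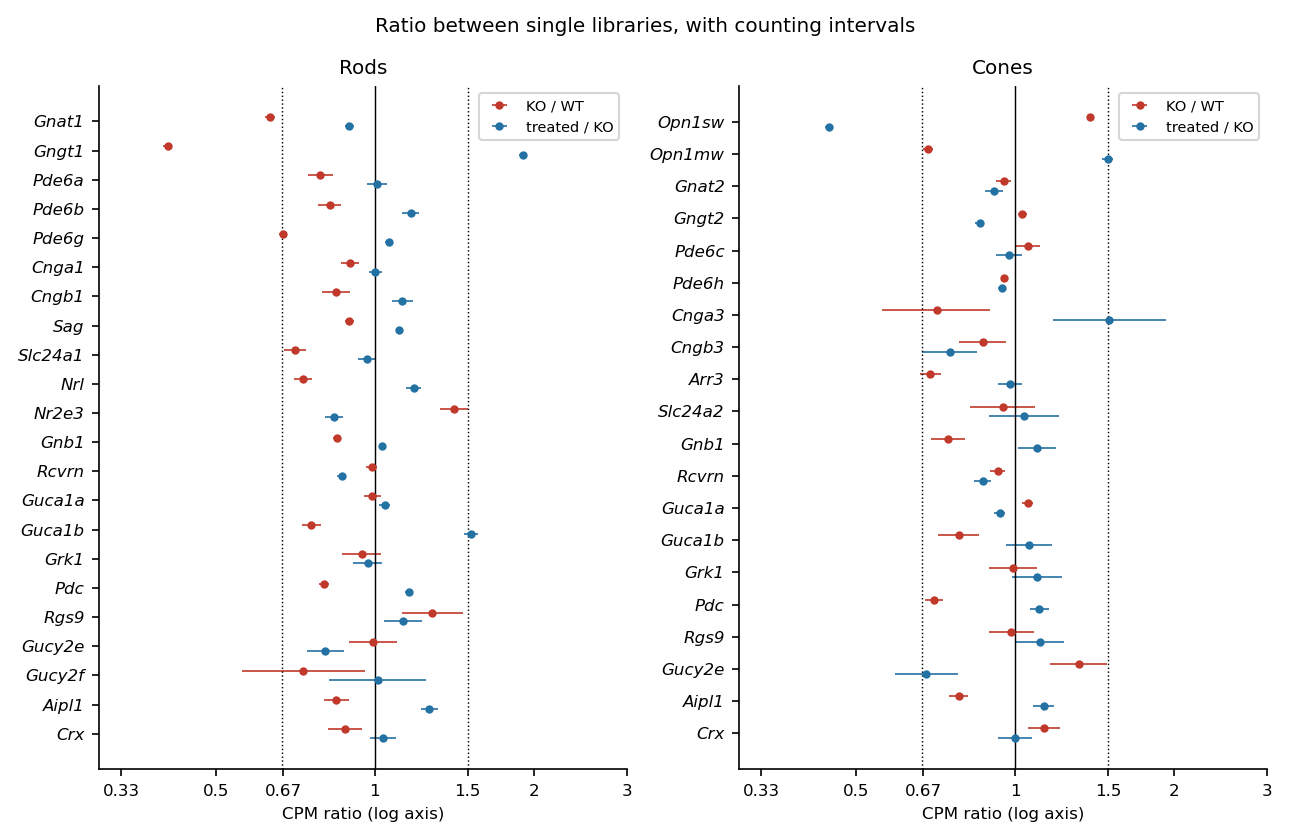
Ratio of CPM between libraries for rod and shared genes in rods (left) and cone and shared genes in cones (right) on a log axis, KO over WT in red and treated over KO in blue, with 95% counting intervals; dotted lines mark 1.5-fold. Gngt1 and Opn1sw lie farthest from 1, and most other points lie between the dotted lines.

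KO rods also differed among themselves. In KO clusters 8.0 and 8.1 (275 and 147 cells, medians of 2585 and 1736 reads), Gngt1 was at 2017 and 1191 CPM and Pde6g at 3440 and 2635 CPM. In KO clusters 6.0 and 6.1 (169 and 161 cells, medians of 2613 and 2221 reads), Gngt1 was at 9421 and 8354 CPM and Pde6g at 14416 and 13799 CPM. Gnat1 did not follow them, at 8949 and 8736 CPM in clusters 8.0 and 8.1 and 7217 and 6069 CPM in clusters 6.0 and 6.1. Crx was at 1065 and 1083 CPM in the former pair and 433 and 435 CPM in the latter. Treated rods showed the same split, with Gngt1 at 2759 and 1908 CPM in clusters 8.0 and 8.1 and 17249 and 15601 CPM in clusters 6.0 and 6.1. The mitochondrial share of reads had medians of 3.02 and 4.32% in KO clusters 8.0 and 8.1 and of 4.53 and 4.77% in 6.0 and 6.1. Clusters come from the other genes of the same cells, so these levels are a description.

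Cone genes in rods stayed at trace levels in all libraries. Opn1sw, the gene of the short-wavelength (S) opsin, was at 114, 54.6 and 55.3 CPM in WT, KO and treated rods, under 1% of the cone level. Its KO to WT ratio in rods was 0.480 (0.385 to 0.599), while in cones KO was the higher library. Opn1mw, the gene of the medium-wavelength (M) opsin, was at 18.2, 18.2 and 38.3 CPM in rods, and the treated value was 2.11 times KO. Pde6h was at 57.4, 53.2 and 81.9 CPM, with a treated to KO ratio of 1.54 (1.28 to 1.85), and Pde6c, at 10.8, 7.09 and 11.6 CPM, had a ratio of 1.63 whose interval (0.973 to 2.77) included 1. After thinning, Opn1sw was read in 5.71, 5.01 and 2.93% of rods and in 2.42, 3.85 and 1.62% of Müller glia (16.2, 7.67 and 4.61% and 16.4, 20.8 and 6.79% before thinning). The direction of the KO to WT ratio of Opn1sw in rods was not kept under every alternative, while Opn1mw, treated to KO, was past the fold in 13 of 13. That Opn1mw ratio ranged from 1.63 to 46.4, the latter over clusters 14.0 and 14.2, where KO had 3.26 and 0 CPM. In clusters 0.1 and 6.1 Opn1mw was at 6.73 and 26.7 CPM in KO and 13.7 and 186 in treated rods. Clusters 0.2 and 6.0 went the other way, at 39.5 and 24.4 CPM in KO and 17.9 and 14.1 in treated rods.

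Genes of the pathway and its compartment outside the 32 were read from 5 lists. In KO against WT rods, 1 of 11 measured cascade genes was past 1.5-fold higher and 1 lower, 1 of 3 retinoid genes lower, 4 of 9 photoreceptor transcription factor genes higher and 1 of 8 terminal genes higher, against 40% of all genes higher and 3.0% lower. Gnb3, the beta subunit that cone transducin uses, had the highest ratio. It was at 74.2 CPM in WT rods (59.4 to 91.4), 796 in KO rods (769 to 824) and 312 in treated rods (293 to 332). The KO level was 10.7 times WT (8.68 to 13.4) and the treated level 0.392 of KO (0.365 to 0.421). In cluster 14.0 Gnb3 was at 60.2, 353 and 138 CPM, and in cluster 0.1 at 179, 562 and 245 CPM. In KO cluster 0.2, of 890 cells, it reached 1273 CPM. The summed cone genes among the 32 were at 295, 233 and 307 CPM in the same rods, so KO had the highest Gnb3 and the lowest summed cone genes. Gnb3 was at 4694, 5550 and 4382 CPM in cones, 1867, 2092 and 1909 CPM in bipolar cells and 24.4, 62.5 and 35.6 CPM in Müller glia. Gnb3 was open to use in clustering and was on the list of cone markers that named the classes. When the 32 genes were also used in clustering, which regrouped the rods, its KO to WT ratio in rods was 2.37.

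Of the other genes past the fold, the transcriptional repressor gene Samd7 was at 101, 258 and 153 CPM in WT, KO and treated rods, with ratios of 2.55 for KO to WT and 0.593 for treated to KO. The homeobox gene Otx2 was at 124, 251 and 247 CPM, 2.03 times WT in KO. The retinoid carrier gene Rbp3 was at 3368, 1630 and 1909 CPM, 0.484 of WT in KO, and the outer segment gene Cdhr1 was at 0.505 of WT. Among rods of 8000 to 20000 reads the KO to WT ratios were 11.8 for Gnb3, 2.60 for Samd7 and 1.92 for Otx2, and 0.755 and 0.772 for Rbp3 and Cdhr1. Over clusters 14.0 and 14.2 together the ratios of these genes, in the same order, were 6.05, 1.59 and 1.97, and 0.871 and 0.973. The treated to KO ratio of Samd7 was 0.724 at 8000 to 20000 reads, inside the fold. Pde6d, which carries lipid-anchored cascade proteins, was at 0.662 of WT, and the terminal gene Unc13b was at 1.64 times WT but at 0.805 over clusters 14.0 and 14.2 together. Samd7 was itself on the list of rod markers and Otx2 on that of bipolar markers. Treated against WT, genes of the lists past the fold included Gnb3 at 4.21, Ppef2 at 1.68, Rbp3 at 0.567 and Cplx4 at 1.54.

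In cones, KO against WT, none of the 20 cone and shared genes with enough reads was past 1.5-fold, against 9.02% of 8663 genes (5.22% higher, 3.8% lower), and the median log2 ratio was -0.07 (0.05 for all genes). Gucy2f had too few reads in cones. Treated against KO, 3 of the 20 were past it, against 12.2% of 7797 genes (5.44% higher, 6.78% lower): Opn1sw lower, Opn1mw and Cnga3 higher. Treated against WT, 2 of the 20 were past it, against 7.05% of 8667 genes (3.51% higher, 3.54% lower): Opn1sw and Cngb3, both lower. The cone genes Gnat2, Gngt2, Pde6c and Pde6h stayed close to 1, with KO to WT ratios of 0.951, 1.03, 1.06 and 0.955. Of the cyclase activator genes, Guca1a was at 1.06 and Guca1b at 0.782 (0.714 to 0.855). The other shared genes with enough reads ran from 0.702 (Pdc) to 1.32 (Gucy2e), with Gnb1 at 0.746 and Aipl1 at 0.782. The outer segment gene Fscn2, at 63.2, 38.2 and 59.6 CPM, was the single gene of the 5 lists past the fold in cones, lower in KO than in WT and higher in treated than in KO.

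The cone channel genes were low in cones and differed modestly. Cngb3 was at 362, 315 and 237 CPM in WT, KO and treated cones, and the treated value was 0.653 of WT (0.588 to 0.726). Cnga3 was at 81.4, 57.8 and 87.1 CPM, with a treated to KO ratio of 1.51 whose interval (1.18 to 1.93) began nearer to 1. Arr3, the cone arrestin gene, was at 2102, 1453 and 1423 CPM, and its KO to WT ratio of 0.691 (0.660 to 0.723) stayed inside the fold. Sag, read in cones as described above, was at 0.624 of WT in KO cones (0.610 to 0.639), so both arrestin genes were highest in WT cones. Crx was at 1.14 times WT in KO cones (1.06 to 1.22).

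Of the 20 genes, Opn1sw had the largest ratio between libraries in cones, and the balance of the cone opsins differed with it. Most mouse cones make both opsins, in proportions known to grade from dorsal to ventral retina, and a minority make S opsin alone. Opn1sw was at 11782 CPM in WT cones, 16370 in KO cones and 7265 in treated cones. Opn1mw was at 8445, 5769 and 8654 CPM. The treated value of Opn1sw was 0.444 of KO (0.435 to 0.452) and 0.617 of WT (0.605 to 0.628), and that of Opn1mw was 1.5 times KO (1.46 to 1.54), past the fold in 7 of 11 alternatives. KO against WT, Opn1sw was 1.39 times higher (1.37 to 1.41) and Opn1mw at 0.683 (0.668 to 0.699). Opn1sw was thus highest and Opn1mw lowest in KO.

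As a share of the reads of both opsin genes, Opn1sw made up 58.2% in WT cones (57.9 to 58.6), 73.9% in KO cones (73.5 to 74.4) and 45.6% in treated cones (45.1 to 46.2). It is a share of 3′ reads and not of protein. The order KO, WT, treated held in the largest cone clusters, at 61.2, 76.0 and 46.9% in WT, KO and treated cells of cluster 3.0 and at 51.9, 70.5 and 44.0% in cluster 3.1. In the small clusters it did not: WT was lowest in cluster 3.2 (32.7, 71.7 and 40.4%, from 15, 58 and 75 cells), and WT and KO intervals overlapped in cluster 3.3, of 7, 5 and 5 cells. Among cells of 8000 to 20000 reads the shares were 58.6, 72.8 and 44.5%. Reads of the opsins in bipolar cells, which lack them, were split at 67.1, 68.9 and 44.0% Opn1sw, with treated again lowest, whereas in Müller glia WT was lowest, at 43.1, 81.8 and 47.1%. Where in the retina the cones came from was not recorded.

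Cell by cell, the libraries differed in how many cones were dominated by each opsin. Cones were thinned to 2000 reads, and 730 WT, 461 KO and 520 treated cones then had at least 5 opsin reads. The median share of S opsin per cone was 43.4% in WT, 77.5% in KO and 0% in treated. Cones with at least 90% S opsin were 15.1% of WT (110 cones), 32.8% of KO (151) and 6.73% of treated (35). Cones with at most 10% S opsin were 42.9% (313), 30.6% (141) and 56.3% (293). The remaining cones were 42.1, 36.7 and 36.9%. These are ranges and not types: 135, 107 and 49 cones lay between 80 and 95%, and 39, 19 and 32 between 5 and 20%. The share of cones with a read of both opsins was 56.6, 57.1 and 44.7%.

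**Figure D4:**
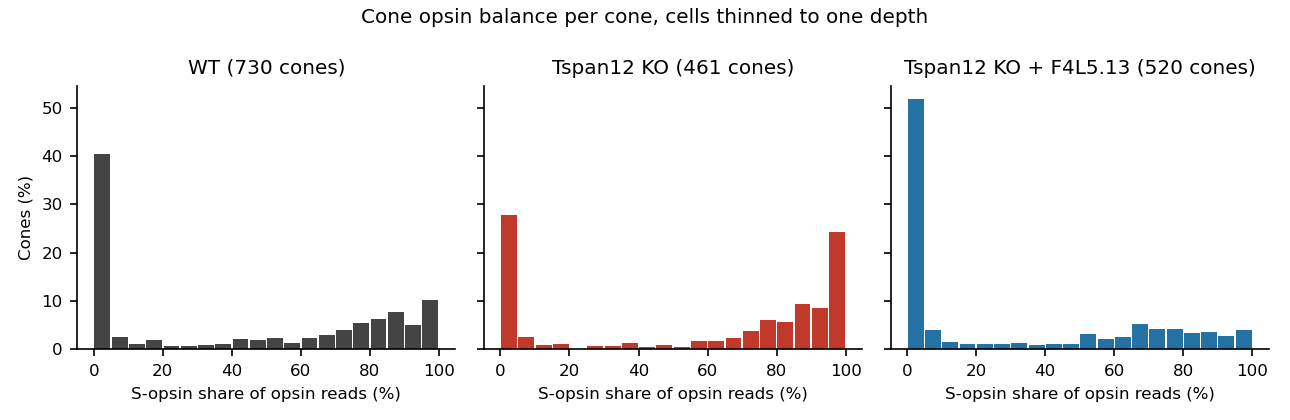
Share of S opsin (Opn1sw) among the opsin reads of each cone, in bins of 5%, as percent of the cones of each library after thinning to 2000 reads. Each library has a peak of cones near 0%; the peak near 100% is highest in KO (32.8% of cones at 90% or more) and lowest in the treated library (6.73%).

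Between these ranges, 8 genes other than the opsins differed in 1 direction in the 3 libraries with intervals that excluded 1. No share over all genes by this rule is given, so the count is not set against a background. Guca1a was 1.42, 1.68 and 1.64 times as high in cones of at least 90% S opsin as in cones of at most 10%, in WT, KO and treated, at 6833, 7369 and 7845 CPM against 4816, 4391 and 4785 CPM. Guca1b was 1.57, 1.66 and 1.52 times as high, Sag 1.41, 1.78 and 1.74 times, Gngt2 1.21, 1.12 and 1.31 times, Pde6g 1.17, 1.2 and 1.34 times and Gngt1 1.16, 1.12 and 1.53 times. Arr3 went the other way, at 0.548, 0.633 and 0.745, as did Pde6h, at 0.898, 0.932 and 0.929. Most other genes of rods had ratios above 1 as well, with at least 1 interval each that included 1. Gnat1 was 1.59, 1.37 and 1.28 times as high, Slc24a1 1.63, 1.5 and 1.18 times and Nrl 1.30, 1.21 and 1.94 times. Pde6b (1.56, 1.10 and 1.71), Cngb1 (1.93, 1.57 and 1.39), Nr2e3 (1.17, 1.15 and 1.39) and the shared gene Gnb1 (1.38, 1.18 and 1.67) did likewise. Cngb1 in KO was under the required reads. Pde6a and Cnga1 were above 1 in WT and treated but at 0.993 and 0.991 in KO. The part of rod RNA in these differences was not tested. Median depths of the high-S and low-S cones were 11419 and 12404 reads in WT, 10478 and 11062 in KO, and 11070 and 13571 in treated. Opn1sw itself was at 106 to 115 CPM in the cones of at most 10%, and Opn1mw at 1170 to 1596 CPM in those of at least 90%. The comparison was chosen after the data were seen and has no test.

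Reads of photoreceptor genes also appeared in the other retinal classes. Free RNA from broken cells enters all droplets and keeps the genes of 1 source in a fixed ratio, so each gene was expressed as a percent of its level in rods (or in cones for cone genes) of the same library. The median over the 11 rod genes was 1.68, 1.64 and 1.34% of rods in bipolar cells of the WT, KO and treated libraries and 3.64, 2.81 and 5.33% in Müller glia. It was 1.18, 1.44 and 2.37% in amacrine cells, 0.585, 0.727 and 0.354% in horizontal cells and 0.456, 0.368 and 0.654% in astrocytes. Microglia, the phagocytes of the retina, had the highest medians of these 6 classes at 4.38, 12.1 and 8.24%, from only 12, 72 and 23 cells. The 5 microglia with most rod reads held 92.9, 31.4 and 62.9% of them. In horizontal cells the top 5 held 78.9, 54.1 and 44.3% (38, 83 and 99 cells). Those of astrocytes held 51.9, 50.5 and 73.1% (53, 26 and 25 cells). The amacrine shares were 53.7, 10.0 and 42.0%, and the Müller shares 7.02, 11.1 and 6.71%. The median Müller cell had 308, 406 and 437 CPM of rod genes against 2283, 1237 and 2699 CPM over the class. A few rod-rich cells thus weigh on these percents, and the part of free RNA was not tested. A gene was described as standing above free RNA where its percent exceeded 3 times the rod-gene median of that class and library, interval included. The median of rod genes served for cone genes too, and no separate level was set for free cone RNA.

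**Figure D5:**
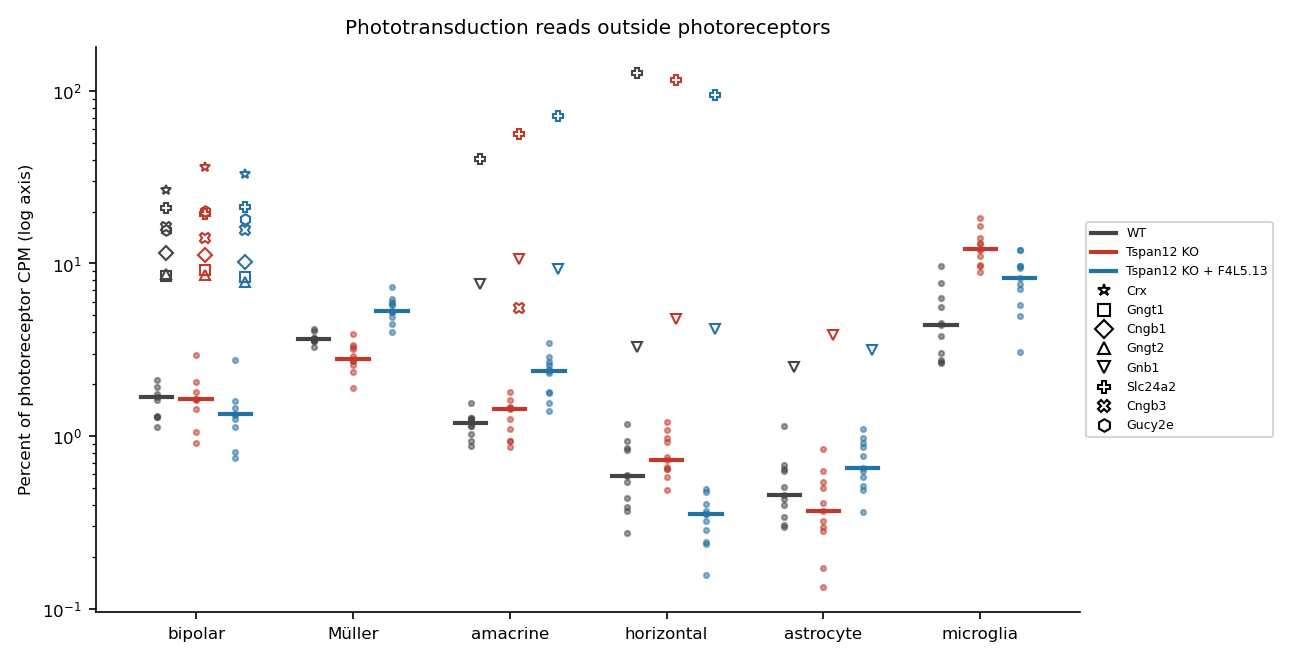
Level of the genes in other retinal classes as percent of their level in rods (cones for cone genes) of the same library, on a log axis; small dots are rod genes, bars their median per library, and open symbols the named genes that stand above 3 times that median. Crx is the highest open symbol in bipolar cells (26.7 to 36.2% of rods), and Slc24a2 lies near 100% in horizontal cells.

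By this rule bipolar cells held 7 genes above free RNA in all 3 libraries. Crx, known to act in bipolar cells as well, was at 204, 243 and 230 CPM, or 26.7, 36.2 and 33.1% of its rod level. Gngt1, at the CPM given above, was at 8.42, 9.21 and 8.36% of rods, a nearly constant share although its KO level was lowest in both classes. It was read in 53.0, 37.2 and 45.8% of bipolar cells after thinning, against 21.3, 17.5 and 29.6% of Müller glia (69.4, 56.9 and 60.5% and 52.8, 51.4 and 54.1% before thinning). Bipolar cells had median depths of 11604, 11217 and 13271 reads. Cngb1 was at 136, 111 and 115 CPM (11.6, 11.2 and 10.3% of rods) and Gucy2e at 61.4, 78.4 and 56.7 CPM (15.7, 20.3 and 18.2%). Of the cone genes, Gngt2 was at 805, 817 and 639 CPM (8.68, 8.53 and 7.79% of cones), Cngb3 at 58.9, 44.0 and 36.9 CPM and Slc24a2 at 37.0, 32.5 and 37.0 CPM. Gnat2 did not pass this rule, whose cut comes from rod genes. After thinning, Gnat2 was still read in 20.2, 14.6 and 15.9% of bipolar cells, against 1.41, 1.87 and 1.32% of Müller glia. Pde6h, which is higher than Gnat2 in cones, was read in 5.18, 3.77 and 2.65% of bipolar cells. Whether bipolar cells make Gnat2 was not tested.

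Within bipolar cells levels differed between clusters, Gngt2 and Rcvrn by far more than Crx in those given here. Gngt2, the cone transducin gamma subunit, was at 2030, 1790 and 2040 CPM in bipolar cluster 11.0 and at 1903, 2560 and 1556 CPM in cluster 17.0. In cluster 1.0, of 383, 155 and 428 cells, Gngt2 was at 22.8, 22.9 and 11.1 CPM. Rcvrn was at 1188, 1673 and 954 CPM in cluster 31, which held 41, 3 and 5 cells, against 31.9, 32.8 and 22.3 CPM in cluster 1.0. Over the whole bipolar class Rcvrn did not stand above free RNA. Crx was at 180, 202 and 200 CPM in cluster 1.0 and 325, 206 and 250 CPM in cluster 31. The Gngt2 gene overlaps exons of Abi3 on the opposite strand, and the counting is not stated to use strand.

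Outside bipolar cells few genes stood above free RNA. Slc24a2, the exchanger gene, was at 226, 194 and 164 CPM in horizontal cells (127, 115 and 94.2% of cones) and at 71.1, 94.5 and 125 CPM in amacrine cells (40.2, 56.3 and 71.7%). Gnb1, a beta subunit used by many receptors, was at 1089, 1289 and 1169 CPM in amacrine cells, 468, 577 and 522 CPM in horizontal cells and 363, 472 and 397 CPM in astrocytes. In amacrine cells Rgs9 (35.4 CPM, 11.8% of rods) and Cngb3 (17.3 CPM, 5.50% of cones) stood above it in the KO library, which held 1209 of these cells against 116 and 137. In the WT and treated libraries both stayed under the required counts or interval. By this rule no gene stood above free RNA in Müller glia or microglia. The rule is set on percents of the photoreceptor level, so a gene high there needs a high level elsewhere to pass. Gnb1 was read in 60.7, 66.7 and 64.7% of Müller glia after thinning (97.1, 97.4 and 94.4% before). Gnat1 was read in 24.5, 26.4 and 32.3% and Gngt1 in 21.3, 17.5 and 29.6%. Before thinning these were 58.2, 74.4 and 65.6% and 52.8, 51.4 and 54.1%. Whether Müller glia make Gnb1 was not tested.

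In cones the same measure used the median of 5.44, 5.64 and 5.72% of rods that the 11 rod genes gave there. Sag, Gngt1, Pde6g, Rcvrn, Guca1a, Grk1, Pdc, Rgs9, Gucy2e, Aipl1 and Crx stood above it in all 3 libraries and Guca1b in WT and KO. Gnb1, Gnat1, Cnga1, Cngb1, Pde6a, Pde6b, Slc24a1, Nrl and Nr2e3 did not.

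Positions of the genes with the largest differences, on GRCm38 with GENCODE M21, are chr6:3993792-3997436 for Gngt1 on the plus strand, chr9:107674474-107679712 for Gnat1 on the minus strand and chr17:47385393-47392967 for Guca1b on the plus strand. Opn1sw lies at chr6:29376671-29388468 on the minus strand, where its exons overlap those of Calu on the opposite strand, and Opn1mw at chrX:74127464-74150760 on the plus strand. Exons of Pde6h likewise overlap those of Arhgdib, and those of Nr2e3 overlap Gm15507 on the same strand, so reads of these pairs cannot be told apart from the table alone.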

How the data were processed

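Single cells of mouse retina were measured in 3 libraries, 1 for each group. The values the authors deposited are estimated counts per gene and barcode, mostly whole numbers, with 2.39, 2.33 and 2.34% of nonzero values fractional in the WT, KO and treated libraries. The submitters' processing notes name Partek 9.0 and mm10. The step in which each was used, strand handling and the collapsing of reads to molecules are not given in the sources used here. Low values were too rarely 1 for molecules, so they are called reads, although molecules had been assumed.

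Values were rounded. Reads were divided by 2.98, 2.93 and 3.24 to give molecule equivalents, used for every 95% interval (exact, counting error only, since amplified reads are not independent molecules) and minimum. Barcodes with under 500 genes or over 20% mitochondrial reads were left out. The barcodes most like simulated doublets were then removed, at an assumed rate of 0.8% per 1000 barcodes and not by a called threshold (296, 839 and 636), which left 5785, 9400 and 8281. Scanpy 1.11.5 clustered them on 2000 variable genes without the 32 genes, using leidenalg 0.10.2. Clusters were named from marker lists. After the clusters were seen, rods and cones were required to show at least 6 markers, and mixed or shallow clusters were left unnamed (559, 1776 and 1972 cells).

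Levels are CPM of reads summed over a class, from 3′ tags and not divided by gene length. A ratio counts as past the fold beyond 1.5 where the higher library held 30 or more molecule equivalents. With 1 library per group no test was run. Values are given in full for genes past the fold with the interval bound nearest 1 beyond 1.2, for the cone opsins, Crx, Nrl and Nr2e3, and for genes standing above free RNA. Of the other lists, at most the 2 highest and 2 lowest ratios past the fold are named, and the count for the outer segment list is not reported here. The 32 genes and the lists were chosen with earlier results of these data known. Alternatives changed clustering, doublets, depth, mitochondrial limit, scaling, minimum, rounding, averaging and fold. Ratios and intervals were run on simulated independent counts, the model that the intervals assume. Those data held no spread between cells and no amplification, so they do not check the intervals on real reads.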

Additional observations from a re-analysis of the deposited data

How the results depend on the processing

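No paired analysis was possible because each group has 1 library. The count of the 22 genes past 1.5-fold in rods, 2 for KO against WT, 2 for treated against KO and 1 for treated against WT, moved as follows. Median-of-ratios scaling gave 14 for KO against WT and 7 for treated against WT, beside 37.7 and 29.6% of all genes. Adding the shallow rod-like cluster gave 4, 1 and 3, beside 47.7, 13.4 and 45.0% of all genes. The cluster of most WT rods (14.0 and 14.2 together), and likewise rods of 8000 to 20000 reads, gave 1 for KO against WT and 0 for treated against WT. In that cluster these counts stood beside 27.2% of 4095 and 12.1% of 4101 genes. At 8000 to 20000 reads they stood beside 21.04% of 2058 and 12.98% of 2065 genes. Both settings thus measured far fewer genes than the main one. A fold of 2 gave 1, 0 and 0, beside 23.2, 4.20 and 15.3% of all genes. Clustering with the 32 genes gave 1 for treated against KO (16.8% of all genes). Keeping doublets gave 2 for treated against WT (34.9% of all genes). Clustering with the 32 genes also turned directions: KO against WT had 2 higher and 1 lower in place of 0 and 2, and treated against WT 1 higher and 0 lower in place of 0 and 1. For these comparisons 37.1 and 28.0% of all genes were past the fold in that setting. The median log2 ratio in rods, KO against WT, was -0.65 with median-of-ratios scaling, 0.090 when clustering used the 32 genes and -0.14 in the cluster of most WT rods. For treated against KO these settings gave 0.15, -0.030 and 0.0085, with 0.12 at 8000 to 20000 reads and 0.018 with the shallow cluster. For treated against WT the former pair gave -0.46 and 0.061. The shallow cluster, the cluster of most WT rods and the depth window were chosen after seeing the data.

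In cones, KO against WT (0 of 20), keeping doublets gave 1, means over cells 2 and median-of-ratios scaling 1. Treated against KO (3) fell to 1 with at least 3000 reads, with doublets kept, with a fold of 2, with means over cells and with scaling to other genes. In that order, 12.3, 10.9, 2.67, 14.1 and 12.3% of all genes were past the fold. Treated against WT (2) gave 0 at a fold of 2 and 1 with means over cells, beside 1.13 and 8.46% of all genes. The median log2 ratio of treated against WT was -0.12 with doublets kept and -0.23 with means over cells. The share of S opsin was 58.6, 72.8 and 44.5% at 8000 to 20000 reads, 57.5, 73.5 and 44.8% when clustering used the 32 genes, and 58.8% in WT with means over cells.

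Free rod RNA in bipolar cells of WT (1.68%) was 2.11% at 8000 to 20000 reads, 2.15% when clustering used the 32 genes and 1.51% with scaling to other genes. In KO (1.64%) it was 3.69% with doublets kept, 1.88% with means over cells and 1.30% against the cluster of most WT rods. In treated (1.34%) it was 1.58% at that depth, 2.85% with doublets kept, 1.15% against that cluster and 1.22% with scaling to other genes.

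Of single genes, 5 ratios in rods reversed. Opn1mw, treated to WT, was 0.513 when clustering used the 32 genes. Opn1sw, KO to WT, was 1.10 with means over cells, and treated to WT it was 1.17 in the cluster of most WT rods and 2.04 at 8000 to 20000 reads. Unc13b, KO to WT, was 0.805 in that cluster. Of the other single-gene values, 366 stayed within their counting interval and 135 did not. The causes were not tested. Gngt1 was past 1.5-fold in 13 of 13 alternatives for KO against WT and for treated against KO, and Opn1sw in cones, treated against KO, in 11 of 11. Such counts leave out the fold of 2, which Gngt1 did not pass for treated against KO. They include the lower minimums of molecule equivalents, which do not alter a ratio. At 8000 to 20000 reads only 101, 55 and 72 rods remained, and with 1 library per group no spread between animals is known.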
